A study of Mus musculus with 9 samples.

Results

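The mouse genes named Hnrnp, Srsf and Rbm encode RNA-binding proteins, many of which decide how introns are removed from new transcripts, and their levels were read from a count table of sorted bone marrow progenitors. A row was included where its gene symbol began with Hnrnp, or with Srsf or Rbm followed by a digit. This gave 71 of 24060 named rows, made up of 20 Hnrnp, 10 Srsf and 41 Rbm genes. Of these, 66 had enough counts to be tested, among 13355 genes tested in all.

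The study asked how the RNA-binding protein MSI2 acts in a mouse model of myelodysplastic syndrome, a clonal disorder of blood formation. RNA was sequenced from LSKs (Lin−Sca1+Kit+ marrow cells, among which are the stem cells and multipotent progenitors) in 3 control, 2 NHD13 and 4 NHD13/MSI2 libraries. NHD13 mice carried the NUP98-HOXD13 fusion under the Vav promoter, which is active throughout the blood system, and NHD13/MSI2 mice carried in addition a doxycycline-inducible MSI2 (KH2-Col1A1-tet-on-MSI2 with ROSA26-rtTA). Marrow of these mice, or of C57BL/6 donors for the controls, was grafted with CD45.1+ helper cells into lethally irradiated congenic hosts. By the labels the strain of every library was C57BL/6 and the age 4 months, and doxycycline induction lasted 3 months. LSK is the labelled cell type throughout, but bulk, MPP and HSC stand in the names of the libraries of control 1, 2 and 3. Nothing in the labels states that each library came from a separate mouse, so that the p-values measure only the spread between these libraries.

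The heterogeneous nuclear ribonucleoproteins (hnRNPs) coat nascent transcripts and often repress the exons near which they bind. SR proteins, the products of the Srsf genes, have a domain rich in arginine and serine, bind exonic enhancers and mostly promote exon inclusion, so that the balance between both families sets many alternative exons. The Rbm genes share an RNA recognition motif and little else, and range from core parts of the spliceosome to factors of RNA decay, RNA methylation and germ cells.

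Some properties of the libraries bear on every value below. Between 19242153 and 23013493 counts per library fell on named genes. CPM here are counts scaled by the library total and its TMM factor (the trimmed mean of M-values). On this scale 3 counts amounted to 0.12 CPM in control replicate 3, the lowest value, and 0.195 CPM in replicate 4 labelled NHD13/MSI2, the highest. The 71 genes held 1.162% to 1.315% of the counts. Msi2 was at 88.0, 77.1, 82.8 and 241 CPM in the libraries labelled NHD13/MSI2, 3 of which were below both NHD13 libraries (139 and 111 CPM). The controls were at 223, 316 and 266 CPM. The Msi2 counts thus do not bear out the label, but whether reads of the transgene were counted on this row is not given. Hoxd13, which is part of the fusion, was at 0 counts in each control library and at 0.648 to 1.13 CPM in the other 6. Directions for that group therefore rest on its label, and these libraries are called the labelled NHD13/MSI2 libraries. Replicate 4 of this group stood apart, with a chi-square per gene of 431 to 458 against its 3 companions, whereas the other pairs within a group gave 19.7 to 84.0 (its TMM factor was 0.785, the others 0.969 to 1.09). By the Pearson correlation of log2 CPM the NHD13 pair (0.930) agreed no better than the pairs with replicate 4 (0.926 to 0.935). The remaining pairs within a group gave 0.973 to 0.983. Controls 1 and 3 had Xist, the RNA of the silenced X, at 888 and 866 CPM, and the other 7 libraries at no more than 2.33 CPM. Eif2s3y, a gene of the Y chromosome, was at 0.123 and 0.0400 CPM in controls 1 and 3 and at 122 to 180 CPM in the other 7. By these genes controls 1 and 3 were female and the other 7 libraries male. In the comparisons over control, sex and group thus cannot be fully told apart. The 9 LSK and stem cell markers were detected in every group, with a summed level of 5012 to 5701 CPM in the control, 2717 to 3390 CPM in the NHD13 and 2307 to 3042 CPM in the labelled NHD13/MSI2 libraries. Ly6a, the gene of Sca1, by which LSKs are sorted, went the other way in the labelled NHD13/MSI2 libraries only. It was at 79.3 to 89.8 CPM in the control, 48.3 and 69.0 CPM in the NHD13 and 98.6 to 375 CPM in the labelled libraries. Cd48, at 164 to 240 CPM in the control, was at 249 to 298 CPM in labelled replicates 1 to 3 and at 104 CPM in replicate 4. In NHD13 replicates 1 and 2 Cd48 was at 187 and 324 CPM. In bulk RNA fewer cells of a type and less RNA per cell cannot be told apart.

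The summed level of the 71 genes was close among the groups. It was 11300, 12238 and 12097.5 CPM in control replicates 1 to 3. In NHD13 replicates 1 and 2 it was 11130 and 11653 CPM. Replicates 1 to 3 of the labelled NHD13/MSI2 libraries were at 12128, 11934 and 12099 CPM, inside the control range, and replicate 4 was above every other library at 15965 CPM. These positions depend on the scaling, since as a share of the library total replicates 1 to 3 (1.175%, 1.162% and 1.174%) were below each control (1.208%, 1.299% and 1.315%) and replicate 4 (1.253%) was below controls 2 and 3. The Hnrnp genes summed to 5666 ± 347 CPM (SD, n = 3) in the control, 5262 ± 257 CPM (SD, n = 2) in the NHD13 and 6169 ± 505 CPM (SD, n = 4) for labelled NHD13/MSI2. The Srsf genes summed to 2865 ± 204 CPM (SD, n = 3), 2784 ± 158 CPM (SD, n = 2) and 2986 ± 569 CPM (SD, n = 4) in the same order. The Rbm genes summed to 3347 ± 65.0 CPM (SD, n = 3), 3346 ± 45.9 CPM (SD, n = 2) and 3877 ± 902 CPM (SD, n = 4). In each family the highest library by CPM was replicate 4 of labelled NHD13/MSI2, and without it the labelled group was at 5923 ± 143 CPM for Hnrnp, 2705 ± 107 CPM for Srsf and 3426 ± 22.1 CPM for Rbm (SD, n = 3).

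**Figure D1:**
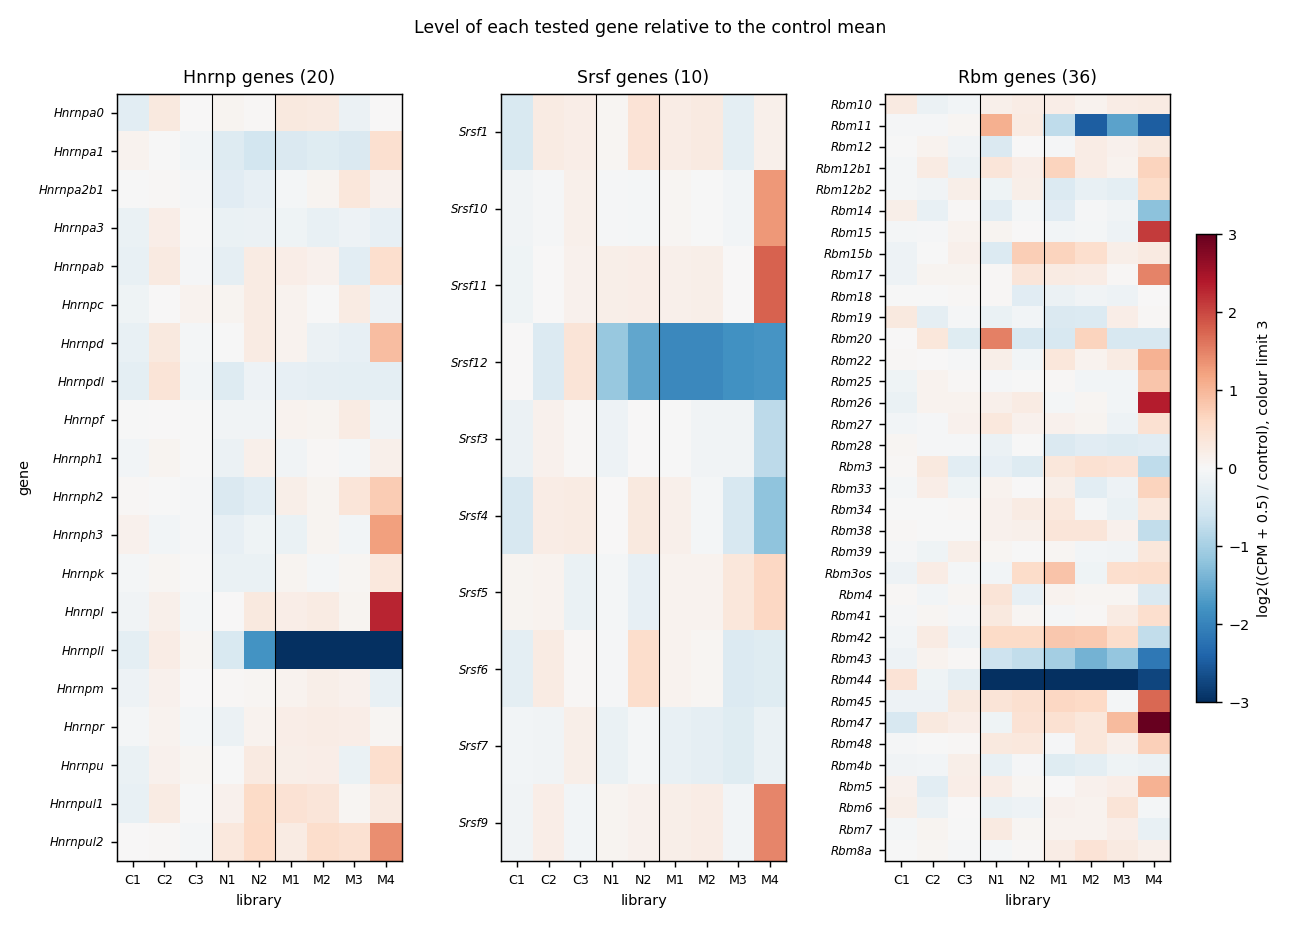
Heat map of the 66 tested genes by family (rows) in the 9 libraries (columns: C1 to C3, control; N1 and N2, NHD13; M1 to M4, labelled NHD13/MSI2). Colour gives log2 of CPM plus 0.5 minus the control mean, limited at 3 in either direction. Most rows are pale, Hnrnpll, Srsf12, Rbm43 and Rbm44 are blue toward the right, and M4 carries most of the strong colours.

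The level of each gene was compared between the groups in the quasi-likelihood fit of edgeR, and a gene was called at a Benjamini-Hochberg adjusted p under 0.01 over all 13355 genes. In labelled NHD13/MSI2 over NHD13 the background was 3.17% of all tested genes (0.584% higher and 2.58% lower), and 1 of the 66 genes was called, Hnrnpll, which fell. Their median log2 fold change was 0.05, against −0.03 over all tested genes. At an adjusted p under 0.05 there were 2, against 8.81% of all tested genes, and at an unadjusted p under 0.05 there were 7 (10.6%), against 21.7%. DESeq2 called 2 (Hnrnpll and Hnrnph2), and 9.47% of all genes to which it gave an adjusted p. The groups did not overlap in 11 of the 66 genes (6 higher and 5 lower), which is 16.7%, where 29.9% of all tested genes did not overlap (13% higher and 16.9% lower). In labelled NHD13/MSI2 over control the background was 11% (4.49% higher and 6.55% lower), and 3 genes of the 66 were called, Hnrnpll, Srsf12 and Rbm43, which fell. Of these, Srsf12 had enough counts to be tested only through the control libraries. At an adjusted p under 0.05 there were 5, against 20.6% of all tested genes, and at an unadjusted p under 0.05 there were 9 (13.6%), against 32.8%. DESeq2 called 5, and 18.1% of all genes. The median log2 fold change was 0.14, against −0.01 over all tested genes, and the groups did not overlap in 14 genes (6 higher and 8 lower) or 21.2%, against 35.7% of all tested genes (15.3% higher and 20.4% lower). In NHD13 over control the background was 1.03% (0.824% higher and 0.21% lower), and edgeR called 0 of the 66 genes, with 3 (4.55%) at an unadjusted p under 0.05, against 13.5% of all tested genes, and 1 called by DESeq2 (Rbm44), which called 4.12% of all genes. At an adjusted p under 0.05 there was 1, Rbm44, against 2.89% of all tested genes. There the groups did not overlap in 21 genes (11 higher and 10 lower) or 31.8%, against 37.4% of all tested genes (18.9% higher and 18.5% lower), and the median log2 fold change was 0.04 against 0.02. More than 2-fold differences were found in 6, 8 and 4 of the 66 genes in these comparisons, that is in 9.09%, 12.1% and 6.06%, where all tested genes had them in 21.2%, 25.6% and 16.5%. The comparisons over control share the control libraries, those of labelled NHD13/MSI2 share the labelled libraries, and NHD13 libraries enter the remaining pair. With library totals in place of TMM factors the median over all genes moved to −0.22 in both comparisons of the labelled libraries, and that of the 66 genes to −0.16 and −0.09, so that the sign of these medians depends on the scaling. Without replicate 4 the medians of the 66 genes in these comparisons were −0.0031 and 0.06, against −0.02 over all tested genes in both.

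**Figure D2:**
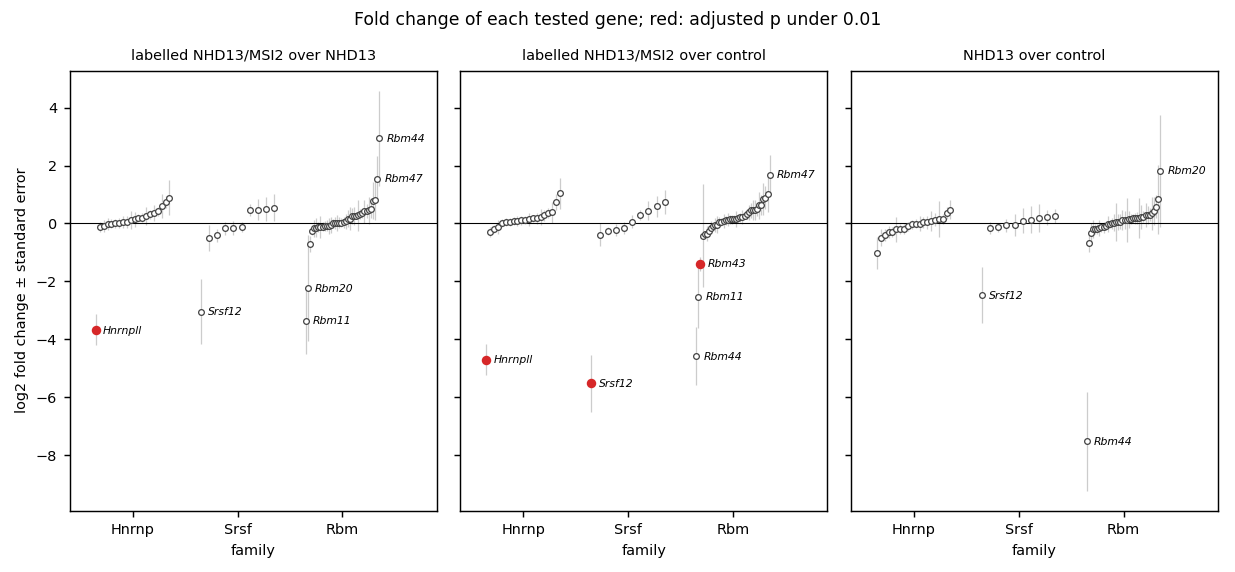
Log2 fold change of each of the 66 tested genes with its standard error, sorted within each family, for the 3 comparisons (panels); red points are called at an adjusted p under 0.01, and genes past 1.4 on the log2 scale or called are named. Most points lie close to 0, and the called genes (Hnrnpll, Srsf12 and Rbm43) lie below 0.

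Hnrnpk and Hnrnpa2b1 were among the Hnrnp genes with the most counts, together with Hnrnpm. Hnrnpk, which binds stretches of cytosine, was at 1878 ± 78.7 CPM (SD, n = 3) in the control, 1636 ± 11.5 CPM (SD, n = 2) in the NHD13 and 2029 ± 230 CPM (SD, n = 4) for labelled NHD13/MSI2. Hnrnpm was at 550.2 ± 53.4 CPM (SD, n = 3), 564 ± 5.19 CPM (SD, n = 2) and 569 ± 69.1 CPM (SD, n = 4) in the same order. Without replicate 4 the labelled mean was 1920 ± 92.1 CPM for Hnrnpk and 603 ± 15.4 CPM for Hnrnpm (SD, n = 3). Per kilobase of the longest annotated transcript the mean over the 9 libraries was 637 CPM for Hnrnpk, 553 CPM for Hnrnpa2b1 and 143 CPM for Hnrnpm. A neighbouring gene on the same strand shares 14.7% of the exonic bases of Hnrnpm, and reads of Hnrnpa1 can be shared with its processed copies in the genome, so both levels are uncertain.

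Hnrnpa2b1, which selects exons and carries mRNAs to their place in the cell, was at 954, 986 and 924 CPM in control replicates 1 to 3. It was at 754 and 811 CPM in NHD13 replicates 1 and 2 and at 922, 1012, 1206 and 1036 CPM in labelled NHD13/MSI2 replicates 1 to 4. Both NHD13 libraries were thus below all the others. It was higher than in NHD13 by 0.42 on the log2 scale in the labelled libraries (standard error 0.16, adjusted p = 0.173, quasi-likelihood fit of edgeR, Benjamini-Hochberg adjusted), which was not past the threshold. Hnrnph2, an X-linked member that binds runs of guanine, had the smallest p among the 66 genes after Hnrnpll in labelled NHD13/MSI2 over NHD13. Its level was 159, 153 and 152 CPM in the control, 114 and 123 CPM in the NHD13 and 175, 163, 200.2 and 261 CPM in the labelled NHD13/MSI2 libraries. All labelled libraries were above both NHD13 libraries and above the controls, and control replicate 2, which lacks Xist, lay between the other controls. Over NHD13 its log2 fold change was 0.75 (standard error 0.20, adjusted p = 0.0494) by the same fit, and 0.61 with an adjusted p of 0.0123 without replicate 4. It was called only by DESeq2 among the tools run (adjusted p = 0.00889, with a range of 0.00889 to 0.269 over the alternatives). In NHD13 over control Hnrnph2 differed by −0.38 on the log2 scale (adjusted p = 0.509, same fit). Hnrnpul2, a nuclear scaffold protein with a part in the DNA damage response, was at 19.3, 19.7 and 18.3 CPM in the control, 23.7 and 29.4 CPM in the NHD13 and 22.6, 27.7, 26.3 and 50.9 CPM in the labelled NHD13/MSI2 libraries. No library of the other 2 groups reached down to the controls, but the log2 fold change in labelled NHD13/MSI2 over control, 0.74, had an adjusted p of 0.0939 by edgeR, and without replicate 4 it was 0.43 (adjusted p = 0.0663).

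Hnrnpll was the gene of this group that differed most clearly. It encodes hnRNP L-like, a relative of hnRNP L that is known from lymphocytes, where it represses variable exons of Ptprc, the gene of the surface protein CD45. It spans chr17:80029487-80062334 on the minus strand (GRCm38) (GENCODE M21), and no other annotated gene shares its exons. The counts of Hnrnpll were 461, 572 and 597 in the control, 361 and 128 in the NHD13 and 5, 16, 30 and 18 in the labelled NHD13/MSI2 libraries. As CPM this was 18.8, 27.1 and 23.9 in control replicates 1 to 3, 16.6 and 6.32 in NHD13 replicates 1 and 2, and 0.259, 0.798, 1.36 and 1.17 in labelled NHD13/MSI2 replicates 1 to 4. The groups did not overlap, with the controls on top, the NHD13 libraries between and the labelled libraries below, and the NHD13 libraries differed from each other more than the controls did.

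Hnrnpll was 12.7-fold lower in the labelled NHD13/MSI2 libraries than in NHD13 (log2 fold change −3.67, standard error 0.54, 95% confidence interval −4.88 to −2.46, adjusted p = 0.00428, quasi-likelihood fit of edgeR, Benjamini-Hochberg adjusted). Against control it was 25.9-fold lower (log2 fold change −4.69, standard error 0.52, adjusted p = 0.000387, same fit). In NHD13 over control the log2 fold change was −1.02 (standard error 0.56, adjusted p = 0.518, same fit). Without replicate 4 the log2 fold changes over NHD13 and control were −3.78 and −4.81, with adjusted p of 0.00528 and 0.000586. The call over NHD13 was lost without control replicate 1, 2 or 3, without NHD13 replicate 1 (log2 fold change −2.78) or without labelled NHD13/MSI2 replicate 2 (adjusted p of 0.0119, 0.0123, 0.0125, 0.0352 and 0.0160). With a term for Xist, or with control replicate 2 as the only control, the log2 fold change of Hnrnpll over NHD13 was −3.67 or −3.63 (adjusted p of 0.0112 and 0.0350) and that over control −4.91 or −4.87 (adjusted p of 0.00468 and 0.0171). Over 20 alternatives the adjusted p over NHD13 ran from 8.47e-09 to 0.0397, and that of the call over control from 1.23e-18 to 0.0171. Ptprc itself was at 531 ± 13.5 CPM (SD, n = 3) in the control, 566 ± 119 CPM (SD, n = 2) in the NHD13 and 646 ± 119 CPM (SD, n = 4) for labelled NHD13/MSI2, and its log2 fold change over NHD13 was 0.19 (adjusted p = 0.655, same fit). Counts per gene hold no information on which of its exons were included.

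Markers of several cell types also differed between the groups, in orders that were not always that of Hnrnpll. Of the 9 LSK and stem cell markers, 6 were called lower in the labelled NHD13/MSI2 libraries than in control and 3 were called lower than in NHD13, whereas Ly6a was higher in the labelled libraries. The summed level of 8 neutrophil markers was 2440 to 4432 CPM in the control, 3376 to 4626 CPM in the NHD13 and 9026 to 15118 CPM in the labelled NHD13/MSI2 libraries, and 1 of the 8 was called higher over control. This sum was led by Mpo, and the other 7, among them Ltf, Camp and Ngp, summed to 1219 to 2843 CPM, 417 to 819 CPM and 438 to 1337 CPM in the same order. The 6 T cell markers summed to 37.7 to 50.3 CPM, 199.98 to 203 CPM and 50.6 to 86.5 CPM in the same order. Of these 1 was called lower than in NHD13, Lck made up most of the sum and the defining marker Cd3e was at 0 in 7 of the 9 libraries. The 6 B cell markers summed to 45.7 to 57.5 CPM, 81.9 to 127 CPM and 262 to 448 CPM, with 1 of 6 called higher over NHD13 and 3 over control, and Ms4a1 was at 0 in 7 of the 9 libraries. The 8 erythroid markers summed to 87.6 to 199 CPM, 9.68 to 23.9 CPM and 0.898 to 14.5 CPM, with 2 called lower than in control and Hba-a1, Hba-a2 and Hbb-b2 at 0 throughout. The 5 monocyte and macrophage markers summed to 259 to 358 CPM, 289 to 897 CPM and 843 to 1450.2 CPM, the 5 megakaryocyte markers to 73.8 to 170 CPM, 76.5 to 549 CPM and 14.5 to 36.1 CPM, and the 6 endothelial and stromal markers to 151 to 177 CPM, 308 to 342 CPM and 439 to 563 CPM. Nearly all of the last sum was Pecam1, which blood cells also express, and the other 5 genes summed to 1.33 to 8.16 CPM, 1.83 to 7.45 CPM and 0.362 to 4.93 CPM. Called in labelled NHD13/MSI2 over NHD13 and over control were 1 and 2 of the monocyte markers (higher), 1 and 1 of the megakaryocyte markers (lower) and 0 and 1 of the endothelial and stromal markers (higher). The part of these differences in the lower level of Hnrnpll, or of any gene named here, was not tested.

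**Figure D3:**
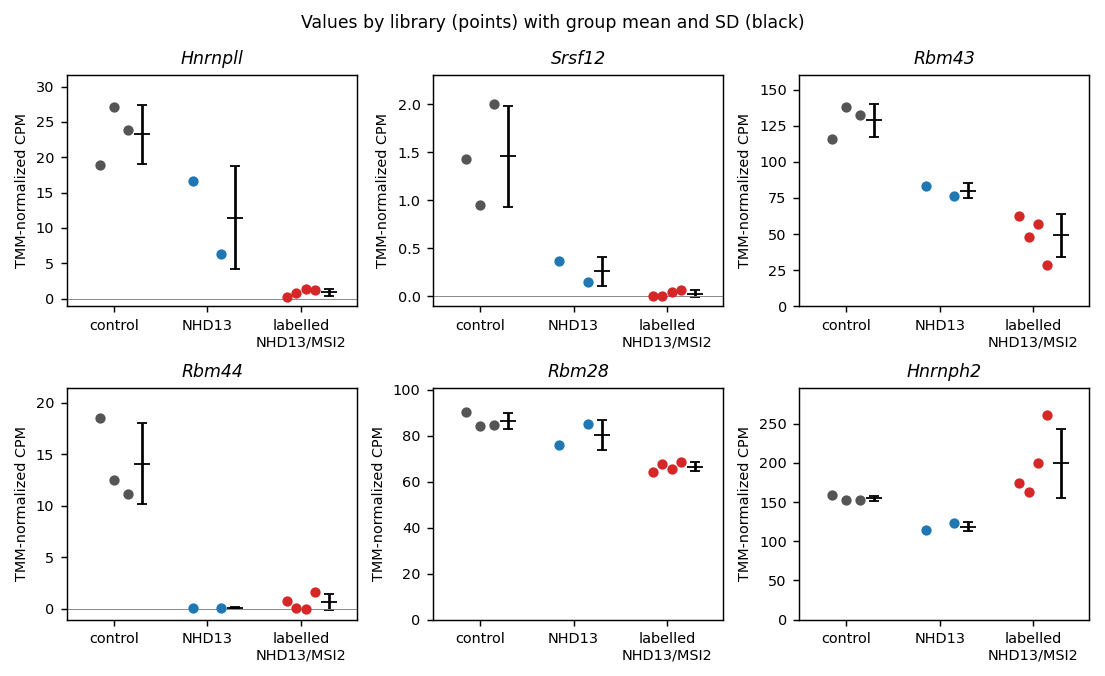
Level (TMM-normalized CPM, linear axis) of 6 genes in each library by group; points are libraries and the black mark is the group mean with its SD (n = 3, 2 and 4). Hnrnpll, Srsf12 and Rbm43 step down from control to NHD13 to labelled NHD13/MSI2, Rbm44 is near 0 outside the control group, Rbm28 is lower and Hnrnph2 higher in the labelled libraries.

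The Srsf genes with the most counts were Srsf7, Srsf3 and Srsf5, SR proteins that promote exon inclusion and, in the case of Srsf3 and Srsf7, escort mRNA out of the nucleus. Per kilobase of the longest annotated transcript their mean over the 9 libraries was 429 CPM for Srsf7, 257 CPM for Srsf5 and 154 CPM for Srsf3. Srsf7 was at 1135 ± 124 CPM (SD, n = 3) in the control, 1033 ± 68.7 CPM (SD, n = 2) and 949 ± 47.8 CPM (SD, n = 4) for NHD13 and for labelled NHD13/MSI2. Srsf3 was at 436 ± 46.1 CPM (SD, n = 3), 415 ± 33.5 CPM (SD, n = 2) and 372 ± 80.7 CPM (SD, n = 4), the last being 412 ± 15.4 CPM without replicate 4 (SD, n = 3), and Srsf5 at 373 ± 42.1 CPM (SD, n = 3), 334 ± 28.9 CPM (SD, n = 2) and 460.0 ± 78.6 CPM (SD, n = 4) in the same order. Over the 10 Srsf genes the median log2 fold change was −0.14 in labelled NHD13/MSI2 over NHD13, −0.04 over control and 0.02 in NHD13 over control, with 0, 1 and 0 genes called by edgeR and 2, 1 and 1 at an unadjusted p under 0.05 (DESeq2 called 0, 1 and 0), where 21.7%, 32.8% and 13.5% of all tested genes were at such a p.

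Srsf12, an SR-related protein that opposes other SR proteins in splicing, was the called member of this family and had its fewest counts. It spans chr4:33208991-33233340 on the plus strand (GRCm38) and shares no exon with another annotated gene. Its counts were 35, 20 and 50 in the control, 8 and 3 in the NHD13 and 0, 0, 1 and 1 in the labelled NHD13/MSI2 libraries. This was 1.43, 0.949 and 2.00 CPM in the control and 0.368 and 0.148 CPM in the NHD13 libraries, whereas each labelled library was below 0.07 CPM (0, 0, 0.0452 and 0.0649 CPM). The groups did not overlap in either direction. From the summed counts, 2 against 105, the level was 57.2-fold lower in the labelled NHD13/MSI2 libraries than in control, with an exact 95% interval of 15.5 to 479, and from 11 against 105 it was 5.68-fold lower in NHD13 than in control, with an interval of 3.05 to 11.7. The ratio to NHD13 was 10.1-fold lower, with an interval of 2.20 to 93.5, and these intervals cover counting error only. In the quasi-likelihood fit of edgeR the adjusted p was 0.00310 against control, 0.114 against NHD13 and 0.288 for NHD13 against control. Srsf12 had enough counts to be tested only through the control libraries, so its fall from control is not independent of that selection. Without replicate 4 the call against control had an adjusted p of 0.00334, and without control replicate 1 or 3 it was lost (0.0129 and 0.0155), with a range over the alternatives of 4.52e-05 to 0.156. With a term for Xist, or with control replicate 2 as the only control, Srsf12 had log2 fold changes over control of −4.89 and −4.83 and was not called (adjusted p of 0.0402 and 0.156). The promoter of Srsf12 is shown because it is a called gene with an entry among the RefSeq promoters of GRCm38.p6, as 300 bases on the plus strand at chr4:33209022-33209321, from 250 bases before to 50 bases after the start given by RefSeq. This start differs from that of the GENCODE span above, which begins at chr4:33208991, so all the bases shown lie inside that span. The promoter holds 26 CpG dinucleotides, where the median over 32851 promoters is 7, and none of the motifs searched.
Srsf12 promoter: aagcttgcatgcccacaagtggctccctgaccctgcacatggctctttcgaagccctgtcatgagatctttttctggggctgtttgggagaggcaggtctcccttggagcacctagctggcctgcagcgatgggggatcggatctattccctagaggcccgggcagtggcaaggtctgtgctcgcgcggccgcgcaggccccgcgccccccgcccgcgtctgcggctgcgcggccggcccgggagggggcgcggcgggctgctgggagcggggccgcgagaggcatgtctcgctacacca

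The Rbm genes were read by role. The background for each list at an unadjusted p under 0.05 was 21.7% of all tested genes in labelled NHD13/MSI2 over NHD13. It was 32.8% in labelled NHD13/MSI2 over control and 13.5% in NHD13 over control. The 7 genes of the spliceosome and the exon junction complex had as median log2 fold change 0.25 in labelled NHD13/MSI2 over NHD13, 0.32 over control and 0.06 in NHD13 over control, and edgeR called 0 of them in each comparison (0, 1 and 0 at an unadjusted p under 0.05, and 0 by DESeq2). Without replicate 4 these medians were 0.0014, 0.17 and 0.05. Rbm39, a coactivator with a part in the recognition of the 3′ splice site, was at 488 ± 52.5 CPM (SD, n = 3) in the control, 493 ± 18.3 CPM (SD, n = 2) in the NHD13 and 507 ± 75.8 CPM (SD, n = 4) for labelled NHD13/MSI2. The last mean was 471 ± 28.2 CPM without replicate 4 (SD, n = 3), below those of the other groups. Rbm25, which regulates apoptotic isoforms, was at 443 ± 34.1 CPM (SD, n = 3), 435 ± 4.65 CPM (SD, n = 2) and 519 ± 177 CPM (SD, n = 4). Its 4 labelled libraries were at 456, 419, 418 and 782 CPM, so that replicate 4 alone was above every other library, and without it the mean was 431 ± 21.9 CPM (SD, n = 3). Per kilobase the mean over the 9 libraries was 177 CPM for Rbm39 and 112 CPM for Rbm25. Rbm42, also of this list, shares 75.4% of its exonic bases with another annotated gene on the same strand.

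Of the 8 genes of alternative splicing and coactivation, edgeR called 0 in each comparison (1, 1 and 0 at an unadjusted p under 0.05, and 0 by DESeq2), with median log2 fold changes of −0.13, −0.14 and 0.12 in the same order of comparisons (−0.02, 0.02 and 0.11 without replicate 4). Rbm5, which acts on exons of genes of apoptosis, had the most counts, with 338 ± 61.8 CPM (SD, n = 3) in the control, 370.2 ± 28.2 CPM (SD, n = 2) in the NHD13 and 441 ± 164 CPM (SD, n = 4) for labelled NHD13/MSI2 (360.3 ± 24.5 CPM without replicate 4, SD, n = 3), and 122 CPM per kilobase over the 9 libraries. Rbm11, a splicing regulator described in brain and testis, was at 2.21, 2.23 and 2.40 CPM in the control, 5.29 and 2.82 CPM in the NHD13 and 1.14, 0, 0.407 and 0 CPM in the labelled NHD13/MSI2 libraries. All labelled libraries were below all others. Its log2 fold change was −3.35 over NHD13 (standard error 1.16, adjusted p = 0.119) and −2.52 over control (standard error 1.08, adjusted p = 0.136) in the quasi-likelihood fit of edgeR, neither past the threshold. Another annotated gene on the same strand, Gm21992, shares 60.5% of the exonic bases of Rbm4 and 18.6% of those of Rbm14. The readthrough row Rbm14-rbm4 had no entry in that annotation. The counts of Rbm4, Rbm14 and Rbm14-rbm4 therefore cannot be told apart with certainty.

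Rbm15 and Rbm15b guide the enzyme complex that methylates adenosine in mRNA, and neither was called in any comparison. The 6 genes of nuclear RNA decay and of the nucleolus had median log2 fold changes of −0.08, 0.08 and 0.17 (−0.16, 0.0036 and 0.16 without replicate 4). In this list Rbm28, a nucleolar protein of ribosome assembly, was at 90.4, 84.2 and 84.5 CPM in the control, 75.9 and 85.0 CPM in the NHD13 and 64.0, 67.9, 65.7 and 68.5 CPM in the labelled NHD13/MSI2 libraries. All labelled libraries were below all the others, replicate 4 included, and the NHD13 libraries overlapped the controls. Against control, Rbm28 differed by −0.38 on the log2 scale (standard error 0.11, adjusted p = 0.0398, quasi-likelihood fit of edgeR), short of the threshold, and DESeq2 gave an adjusted p of 0.00548 in a range of 0.00548 to 0.535 over the alternatives. Over NHD13 it was −0.27 (adjusted p = 0.244, same fit).

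Among the 3 genes of stress and mRNA stability (Rbm3, Rbm38 and Rbm47), edgeR and DESeq2 called 0 in each comparison, and 1 was at an unadjusted p under 0.05, over control. This was Rbm47, a cofactor of C-to-U RNA editing that also stabilises mRNAs, at 26.6, 45.2 and 42.4 CPM in the control, 33.7 and 49.9 CPM in the NHD13 and 51.1, 47.0, 71.8 and 319 CPM in the labelled NHD13/MSI2 libraries. The labelled libraries did not overlap the controls, but their mean rested on replicate 4. Over control its log2 fold change was 1.68 (standard error 0.67, adjusted p = 0.113, quasi-likelihood fit of edgeR) and 0.58 (adjusted p = 0.124) without replicate 4.

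The 4 genes of germ cells and muscle were at or near 0 with 1 exception. Rbm24, a splicing factor of heart and muscle, had 1 count in all 9 libraries, Rbm46, a germ cell factor, had 5, and Rbm31y had 0. In a library at 0, a level of up to 3 counts, or 0.12 to 0.195 CPM, cannot be told from none. Rbm44, which binds RNA in the bridges between germ cells, spans chr1:91145089-91170795 on the plus strand (GRCm38) and had 454, 264 and 279 counts in the control libraries. It had 2 and 1 counts in the NHD13 and 15, 1, 0 and 25 counts in the labelled NHD13/MSI2 libraries. In CPM the controls were at 18.6, 12.5 and 11.2, the NHD13 libraries at 0.0920 and 0.0494, and the labelled libraries at 0.776, 0.0499, 0 and 1.62. The controls were far above the other 6 libraries, with no overlap, and 2 of the labelled libraries were no higher than the highest NHD13 library.

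From 3 counts against 997, Rbm44 was 198-fold lower in NHD13 than in control, with an exact 95% interval of 67.5 to 961, and from 41 counts against 997 it was 26.5-fold lower in the labelled NHD13/MSI2 libraries, with an interval of 19.4 to 37.2 (counting error only). In the quasi-likelihood fit of edgeR the adjusted p was 0.0481 and 0.0110, short of the threshold in both, and DESeq2 gave 7.88e-06 and 6.74e-05. Over the alternatives these ranged from 7.88e-06 to 0.497 and from 6.74e-05 to 0.200. Without replicate 4 the adjusted p of the second was 0.00293, past the threshold, and that of the first was 0.0145.

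The 8 less described Rbm genes had median log2 fold changes of 0.06, 0.14 and 0.04 (−0.04, 0.0040 and 0.03 without replicate 4), with 0, 1 and 0 called by edgeR and 1 at an unadjusted p under 0.05 in each comparison. The gene was Rbm43 each time, a small protein with an RNA recognition motif and a part that is little known. It spans chr2:51924448-51935163 on the minus strand (GRCm38) and shares no exon with another annotated gene. Rbm43 was at 116, 138 and 132 CPM in control replicates 1 to 3, at 83.6 and 76.3 CPM in NHD13 replicates 1 and 2 and at 62.8, 48.0, 57.0 and 28.6 CPM in labelled NHD13/MSI2 replicates 1 to 4. The groups did not overlap and followed the same order as those of Hnrnpll, with control replicate 2 the highest library. Rbm43 was 2.62-fold lower in the labelled NHD13/MSI2 libraries than in control (log2 fold change −1.39, standard error 0.24, 95% confidence interval −1.92 to −0.86, adjusted p = 0.00313, quasi-likelihood fit of edgeR). The log2 fold change was −0.70 over NHD13 (standard error 0.26, adjusted p = 0.149) and −0.69 in NHD13 over control (standard error 0.29, adjusted p = 0.331) by the same fit. Without replicate 4, the lowest library, the log2 fold change over control was −1.20 (adjusted p = 0.000311). The call was lost without control replicate 1, 2 or 3 or without labelled NHD13/MSI2 replicate 2 (adjusted p of 0.0110, 0.0154, 0.0148 and 0.0114), in a range of 1.68e-06 to 0.0797 over the alternatives. With a term for Xist, or with control replicate 2 as the only control, Rbm43 had log2 fold changes of −1.49 and −1.46 and was not called (adjusted p of 0.0346 and 0.0797).

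RefSeq gives 2 starts for Rbm43, and their promoters on GRCm38.p6, 300 bases each on the minus strand, are shown as those of the other called gene with an entry. Capitals mark matches to the motifs searched, on both strands. Of 32851 promoters of the same length, the E-box letters CACGTG were in 7.15%. The core of sites of the ETS family, CCGGAA, was in 14.9% of them. The GATA motif searched was TGATAA, found in 9.05%, and for the RUNX factors it was TGTGGT, found in 16.8%. The letters of a TATA box, TATAAA, were in 13.6%. The upstream one, at chr2:51935114-51935413, has 11 CpG and a TATAAA on the opposite strand that begins at position −177 from the start. The downstream one, at chr2:51934595-51934894, has 21 CpG, a CACGTG at −239 and a CCGGAA at −109. A match describes the letters and not a bound site.
Rbm43 upstream start: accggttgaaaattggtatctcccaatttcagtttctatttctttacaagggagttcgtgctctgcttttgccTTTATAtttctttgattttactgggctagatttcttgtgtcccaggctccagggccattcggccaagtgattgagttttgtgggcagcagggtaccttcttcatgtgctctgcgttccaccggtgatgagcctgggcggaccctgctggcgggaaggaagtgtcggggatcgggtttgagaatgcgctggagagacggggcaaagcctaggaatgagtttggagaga
Rbm43 downstream start: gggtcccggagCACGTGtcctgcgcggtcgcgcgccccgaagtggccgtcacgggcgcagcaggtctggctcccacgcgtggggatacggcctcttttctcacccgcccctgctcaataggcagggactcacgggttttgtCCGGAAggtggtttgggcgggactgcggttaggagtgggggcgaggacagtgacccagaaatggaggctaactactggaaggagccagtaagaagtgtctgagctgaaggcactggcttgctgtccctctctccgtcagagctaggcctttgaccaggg

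The 3 antisense and readthrough rows held few counts. Rbm3os, which lies opposite Rbm3, was at 1.25 ± 0.240 CPM (SD, n = 3) in the control, 1.59 ± 0.619 CPM (SD, n = 2) in the NHD13 and 1.92 ± 0.633 CPM (SD, n = 4) for labelled NHD13/MSI2, and was not called. Rbm14-rbm4 had 33 counts in all, and Rbm46os had 9, each of them in control replicate 2. Whether reads were counted by strand is not given in the sources used here, so Rbm3os cannot be told apart from Rbm3 where they overlap.

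Genes without a call but with separate groups were also read, with values seen before they were chosen. Rbm8a (Y14), a subunit of the exon junction complex left on spliced mRNA, was at 91.96, 96.9 and 90.5 CPM in the control and at 89.5 and 95.4 CPM in NHD13. In the labelled NHD13/MSI2 libraries it was at 108, 123, 113 and 103 CPM. All 4 labelled libraries were above the other 5, with a log2 fold change of 0.27 over NHD13 (adjusted p = 0.270) and 0.26 over control (adjusted p = 0.149) in the quasi-likelihood fit of edgeR. Rbm22, which contacts the catalytic RNAs of the spliceosome, was at 172, 168 and 164 CPM in the control, 189 and 160 CPM in NHD13 and 214, 182, 199.9 and 346 CPM in the labelled libraries. The last group was above the controls and overlapped NHD13, and its highest library was replicate 4 (log2 fold change over control 0.49, adjusted p = 0.161, same fit, and 0.25 with an adjusted p of 0.0868 without it). Srsf1, the best known SR protein, overlapped among all groups, with 142 ± 36.0 CPM (SD, n = 3), 165 ± 28.9 CPM (SD, n = 2) and 148 ± 23.8 CPM (SD, n = 4), and so did Hnrnpc, which packages nascent transcripts, with 435 ± 35.3 CPM (SD, n = 3), 488 ± 37.4 CPM (SD, n = 2) and 449 ± 54.9 CPM (SD, n = 4). In NHD13 over control, the 21 genes with separate groups comprised 8 Hnrnp genes (1 higher and 7 lower), 11 Rbm genes (9 higher and 2 lower) and 2 Srsf genes (1 higher and 1 lower), where 18.9% of all tested genes were higher and 18.5% lower in this way.

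Replicate 4 of the labelled NHD13/MSI2 libraries was examined over the 62 genes with a mean of at least 50 counts. The background was 20% of 10972 genes more than 2-fold from the mean of replicates 1 to 3, and 17 of the 62 genes (27.4%) were, 12 of them higher and 5 lower. In each of the other 8 libraries 0 to 2 of the 62 genes (at most 3.23%) were more than 2-fold from the rest of their group. Over all genes this share was 1.39% to 3.85% in the control libraries and in labelled replicates 1 to 3. In the NHD13 libraries, each compared with the other, it was 10.8%. Replicate 4 lay outside the range of the other 8 libraries in 42 of the 62 genes, 29 above and 13 below, which is 67.7% against 55% of all genes. The genes named in the next paragraph were chosen after their values were seen.

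Rbm26, which acts in nuclear RNA decay, was at 158, 168 and 155 CPM in replicates 1 to 3 and at 834 CPM in replicate 4. Hnrnpl, the close relative of Hnrnpll, was at 142, 147 and 130.4 CPM and then at 600.1 CPM, whereas Hnrnpll was not outside the range of its group there. Rbm15 was at 19.8, 19.8 and 18.5 CPM and at 91.3 CPM in replicate 4. These genes were thus 5.19-fold, 4.29-fold and 4.63-fold higher in that library. Srsf11 was at 285, 288 and 258 CPM and at 873 CPM in replicate 4, and Srsf10, a splicing repressor after heat shock, was at 346, 331 and 317 CPM and at 823 CPM. In the other direction Rbm3, which is induced by cold, was at 237, 259 and 248 CPM and at 111 CPM in replicate 4, and Rbm42 was at 28.7, 28.1 and 23.3 CPM and at 9.41 CPM. The median within-group SD on the log2 scale over the 62 genes was 0.15 among the controls, 0.13 among replicates 1 to 3 and 0.30 among all 4 labelled libraries, close to 0.17, 0.17 and 0.33 over all genes. Actb was at 51602 CPM in replicate 4 and at most at 11649 CPM elsewhere, and Rps2 at 86.3 CPM against 321 to 597 CPM. Across genes, the difference of replicate 4 had a Spearman correlation with transcript length of 0.13 over the 62 genes and 0.295 over 10491 genes, and with GC content of −0.05 and −0.17, values that share these 4 libraries. The part of transcript length or GC content in these differences was not tested.

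**Figure D4:**
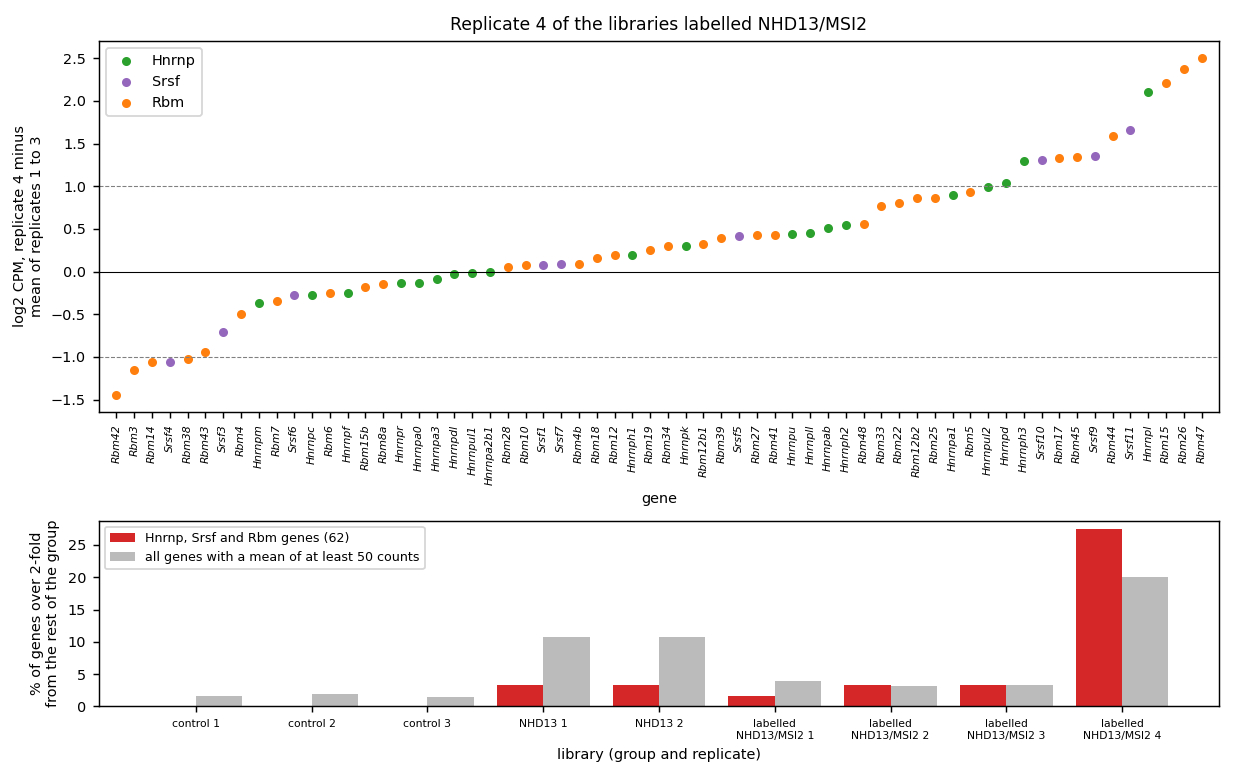
Top, log2 CPM of replicate 4 of the labelled NHD13/MSI2 libraries minus the mean of replicates 1 to 3 for each of the 62 genes with a mean of at least 50 counts (dashed lines, 2-fold; colour, family). Bottom, percent of these genes (red) and of 10972 genes (grey) more than 2-fold from the rest of the group, for each library; replicate 4 has the tallest bars, at 27.4% and 20%.

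The other genes of the splicing machinery were read from a list of 91 genes, of which 89 were tested. In the core spliceosome, 0 of 42 tested genes were called by edgeR in labelled NHD13/MSI2 over NHD13 (0 also at an unadjusted p under 0.05, against 21.7% of all tested genes), 1 was called lower over control (3 of 42 at an unadjusted p under 0.05, against 32.8%) and 0 in NHD13 over control (1 of 42, against 13.5%). The called gene was Lsm3, a subunit of the Lsm ring that binds U6 snRNA, at 123, 163 and 157 CPM in the control, 99.5 and 95.6 CPM in the NHD13 and 93.7, 97.4, 76.6 and 61.3 CPM in the labelled NHD13/MSI2 libraries (log2 fold change over control −0.84, standard error 0.18, adjusted p = 0.00994, quasi-likelihood fit of edgeR). Of 38 tested regulators, 3, 5 and 2 were at an unadjusted p under 0.05 in the same order of comparisons, against 21.7%, 32.8% and 13.5% of all tested genes. By edgeR 1 regulator was called lower in labelled NHD13/MSI2 over NHD13 and over control and 0 in NHD13 over control. This was Rbfox2, a regulator known from nerve and muscle, at 9.45, 3.51 and 5.68 CPM in the control, 8.51 and 3.95 CPM in the NHD13 and 0, 0.349, 0 and 0 CPM in the labelled NHD13/MSI2 libraries. The labelled libraries were below all others. The log2 fold change of Rbfox2 was −6.02 over NHD13 (adjusted p = 0.00951) and −6.02 over control (adjusted p = 0.00331) by the same fit. Without replicate 4 the adjusted p of Rbfox2 over NHD13 was 0.0107 (not called), and the kinase Srpk2 was called higher there (log2 fold change 0.66, adjusted p = 0.00880, against 1.06 and 0.120 with it). The call of Rbfox2 over NHD13 was kept without labelled replicate 2 and lost without any other single library (adjusted p of 0.00631 to 0.0506), and that over control was lost without control replicate 1 or 3 (0.0170 and 0.0127). The call of Lsm3 was kept without labelled replicate 4 (adjusted p = 0.00436) and lost without any other single library (0.0133 to 0.0454). Of 9 genes that act on SR proteins, 8 kinases and the import receptor Tnpo3, edgeR called 0 in each comparison. At an unadjusted p under 0.05 there were 1, 2 and 0 of the 9, against 21.7%, 32.8% and 13.5% of all tested genes. DESeq2 called 1, 2 and 0 of the 89 genes in these comparisons, against 9.47%, 18.1% and 4.12% of all genes. Over the 89 tested genes the median log2 fold change was 0.06, 0.01 and −0.0043 in the 3 comparisons, against −0.03, −0.01 and 0.02 over all tested genes.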

How the data were processed

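The authors deposited whole-number counts of reads per gene symbol for 9 libraries, without normalization or pooling. The submitters' processing notes name STAR, HTSeq, DESeq and the build mm9, without versions or roles. Names that follow the March genes stood 2 rows above their counts. They were moved down by 2 rows (11942 names), which gave Xist, at 0 counts in every library as deposited, 21712 and 21664 counts in control replicates 1 and 3. The 13 rows left without a name held 0.0253% to 0.0323% of a library. One gene of the Srsf family is not reported here.

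All 9 libraries entered 1 quasi-likelihood fit in edgeR 4.0.16 (R 4.3.3, prior degrees of freedom 3.38), after filterByExpr with the groups and TMM scaling of the counts. A gene was called where p, adjusted by Benjamini-Hochberg over all tested genes, was under 0.01. DESeq2 1.42.0 was an alternative. Library totals of 19242153 to 23013493 counts set the precision, and exact intervals and limits cover counting error only. Positions and lengths are from GENCODE M21 on GRCm38, where 70 of the 71 genes were found, and 60 of the 71 had an entry among the RefSeq promoters. Named genes were the called ones (up to 10 per comparison and direction), the 5 next by p in each comparison, the 3 with the most counts per family and those with 3 counts or fewer in every library, and from the other splicing genes up to 3 called per comparison and direction. Genes outside this rule are marked as such or describe a role. The genes, lists and roles were chosen with earlier results of these data known. The replicate numbers did not pair the libraries.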

Additional observations from a re-analysis of the deposited data

Results flagged for a closer look

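In a group of 4 libraries, 22 values were examined for a library far from its companions (the gap to the nearest library divided by the whole range, with a critical value of 0.829). Of these, 7 were over it, each through replicate 4 of the labelled NHD13/MSI2 libraries. Chance flags about 1 in 20 single groups, a rate that does not hold for flags that share a library. The sums also hold the single genes, and the share of all genes over this value was not computed. Replicate 4 lay outside the range of the other 8 libraries in 55% of all genes with a mean of at least 50 counts. The quotient was 0.909 for Rbm47 (319 CPM, other libraries 47.0 to 71.8 CPM), 0.895 for Rbm25 (782 CPM, others 418 to 456 CPM) and 0.86 for Rbm5 (685 CPM, others 335 to 383 CPM), all higher in replicate 4. It was 0.846 for Srsf3, which was lower there (252 CPM, others 402 to 429.6 CPM). It was 0.952 for the summed level of the 71 genes (15965 CPM, others 11934 to 12128 CPM), 0.83 for the summed Srsf genes (3829 CPM, others 2587 to 2798 CPM) and 0.976 for the summed Rbm genes (5229 CPM, others 3402 to 3446 CPM).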

How the results depend on the processing

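Numbers of called genes under 20 alternatives are given as those of the 66 genes and then of the other splicing list. In labelled NHD13/MSI2 over NHD13 (1 and 1), DESeq2 and an adjusted p under 0.05 each gave 2 of the 66, the robust fit gave 0 of the list, and 0 and 0 came from the fit of only these groups, from a term for Xist and from the fit without control replicates 1 and 3. In labelled NHD13/MSI2 over control (3 and 2), DESeq2, an adjusted p under 0.05 and library totals without TMM factors, an alternative chosen after seeing the data, each gave 5 of the 66, the fit of only these groups gave 1 of the list, the Xist term gave 1 and 0, and the fit without control replicates 1 and 3 gave 0 and 0. In NHD13 over control (0 and 0), DESeq2, an adjusted p under 0.05 and the fit of only these groups each gave 1 of the 66 (Rbm44). Leaving out a library in turn gave 0 to 1 of the 66 and 0 to 1 of the list in the first comparison, 1 to 4 and 0 to 3 in the second, and 0 in the third. The first comparison lost its call of the 66 without control replicate 1, 2 or 3, NHD13 replicate 1 or labelled replicate 2, and the second had 1 without control replicate 1 or 3. The fits that left out libraries or a group held fewer libraries, and otherwise the cause was not tested.

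The replicate numbers did not pair the libraries (correlations of same-numbered deviations from −0.149 to 0.222). With the number as a replicate block, 0 of the 66 and 0 of the list were called in the first comparison and 3 and 1 in the second, with an adjusted p of 0.0211 for Hnrnpll over NHD13, and of 0.0106 for Srsf12 and 0.00389 for Rbm44 over control. Of the values of named genes under an alternative, 339 stayed on the same side of the threshold, 21 dropped below it and 14 went past it, with no change of sign. With a minimum mean of 50 counts some low genes, such as Srsf12, gave no value. Depth limits the genes under 3 counts.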
